A study of Mus musculus with 36 samples.

Results

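The genes of the corticotropin-releasing hormone (CRH) system and of glucocorticoid signaling were examined in the hippocampus of male mice. The 10 genes were chosen by name: the peptide Crh, its binding protein Crhbp, the CRH receptors Crhr1 and Crhr2, the glucocorticoid receptor Nr3c1, the mineralocorticoid receptor Nr3c2, the corticosterone-regenerating enzyme Hsd11b1, and the glucocorticoid-responsive genes Fkbp5, Sgk1 and Tsc22d3. On the Illumina MouseWG-6 BeadChip 9 of them were represented, by 17 of the 46632 probes, and no probe carried the name Nr3c2. The brighter 50% of all probes were tested in each experiment. In the Braf experiment this left 13 probes of 7 genes, and in the Cre experiment 12 probes of the same 7 genes, since the single probes of Crh and Nr3c1 were too dim in both.

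Total RNA of the complete hippocampus of 23 males was hybridized to 36 arrays. In the Braf experiment, 5 Braf-cko mice carried 2 floxed Braf alleles and a heterozygous CamkIIa-Cre transgene, and 6 Braf-flox littermates carried the floxed alleles without Cre. All of these were 4 months old and of a mixed background, 93.7% C57BL/6J with 6.2% FVB and 0.1% 129/Sv. In the Cre experiment, 6 CamkII-Cre mice heterozygous for the same transgene and 6 wildtype littermates, CamkII-wt, were 6 months old and of C57BL/6J background. CamkIIa-Cre recombines in principal neurons of the forebrain after birth, so interneurons and glia keep Braf, and whole tissue mixes recombined with other cells. Fewer cells of a type and less RNA per cell cannot be told apart in such tissue. One Braf-cko animal had 2 arrays and every animal of the Cre experiment had 2, and arrays of 1 animal were averaged. All values are log2 of the deposited normalized intensity. They are not comparable between the experiments, because they were probably normalized apart, with array medians of 51.8 to 53.3 for Braf and 64.98 to 70.2 for Cre. The single Braf probe was dim, at a mean of 5.52 in Braf-cko and 5.56 in Braf-flox mice. Its position relative to the deleted exon is not given in the sources used here, so it does not check the labels.

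CRH is released under stress and acts through G protein-coupled receptors, of which CRHR1 is prominent in forebrain neurons, while the secreted CRH-binding protein sequesters the peptide. Stress hormones of the adrenal cortex then act on the brain through the glucocorticoid and the mineralocorticoid receptor, both abundant in hippocampal neurons. Bound receptor enters the nucleus and induces genes such as Fkbp5, whose product lowers the receptor's affinity for hormone, the kinase gene Sgk1, and Tsc22d3, which encodes the leucine zipper protein GILZ.

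Crhbp was the 1 member that passed the adjusted test in Braf-cko mice. Its level fell to 42.6% of that in Braf-flox littermates (95% interval 33.7% to 53.9%), and no animal of one group reached the range of the other. In CamkII-Cre mice it stayed at 99.1% of the wildtype level (interval 86.3% to 113.7%). The Crhbp probe ILMN_1231710 gave log2 values of 9.36, 9.15, 9.31, 8.67 and 9.41 in the 5 Braf-cko mice. In the 6 Braf-flox mice the lowest value was 10.01, the median 10.40 and the highest 10.86. The highest mutant thus lay below the lowest control, and the mutant at 8.67 lay clearly below the other 4. The log2 change was -1.23 (SE 0.16, n = 5 and 6; limma, adjusted p = 0.0027). It was the 1 called among 13 member probes tested, where 0.532% of all tested probes were called and 0.373% were called lower. Of all tested probes, 1.03% had every Braf-cko value below every Braf-flox value, and Crhbp was the 1 member probe among them. The exact permutation test, two-sided, gave p = 0.0043, the smallest that 462 assignments of 11 animals allow, as 1 of 17 such tests in this experiment and without adjustment. The call was lost by the methods' t-test applied to each probe (adjusted p = 0.064) and, with fewer animals, within those numbered 1 to 3 (-1.28, limma, adjusted p = 0.096) and those numbered 4 and above (-1.23, adjusted p = 0.23).

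**Figure D1:**
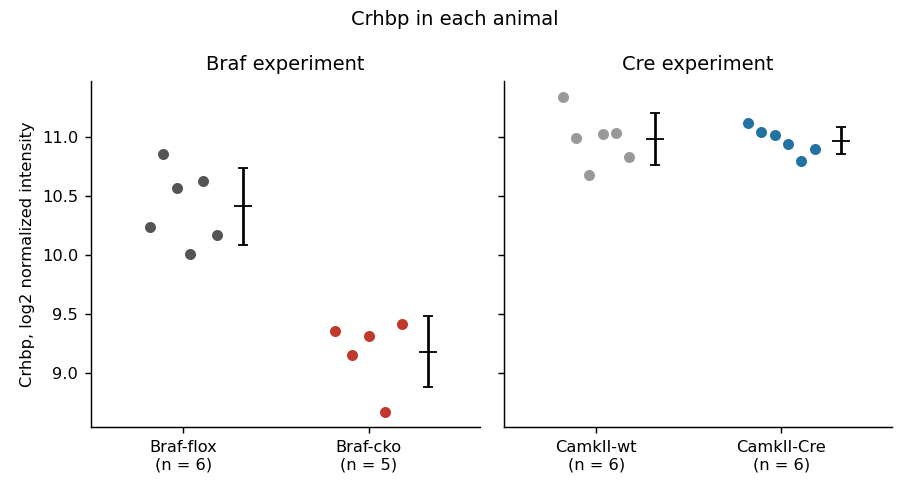
Crhbp at probe ILMN_1231710, log2 normalized intensity (vertical axis), one point for each animal, with the group mean and SD as a bar beside the points. The 5 Braf-cko mice lie between 8.67 and 9.41, below all 6 Braf-flox mice, while CamkII-Cre and CamkII-wt mice overlap; levels of the left and the right panel were normalized apart and are not comparable.

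The Cre transgene alone did not shift Crhbp measurably. The 6 CamkII-Cre mice ranged from 10.80 to 11.12 with a median of 10.98, and the 6 CamkII-wt mice from 10.68 to 11.34 with a median of 11.01. The CamkII-Cre values fell within the range of the wildtype values. The log2 change was -0.01 (SE 0.09, 95% interval -0.21 to 0.19; limma, adjusted p = 1.00), and 3 of 6 CamkII-Cre mice lay below the wildtype mean. Among all tested probes 0.00858% were called in this comparison, and none of the 12 member probes, of which also none had an unadjusted p under 0.05 against 380 probes overall. The methods' t-test called 0 member probes here as well. The difference between both changes was itself tested in 1 fit of all 23 animals. For Crhbp it was -1.22 (SE 0.19; limma, adjusted p = 0.0029), the 1 call among 13 member probes tested, against 0.184% of all tested probes called and 0.146% called lower.

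The Crhbp measurement was precise on these arrays. In the Cre experiment, where every animal had 2 arrays, the SD of a single array was 0.06 and the SD between animals of a group 0.18. The Braf-cko animal hybridized to 2 arrays gave 9.41 and 9.30.

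Crhbp is expressed in neurons, and in rodent hippocampus and cortex it is found in subsets of GABAergic interneurons. Of 18 tested markers of interneurons, each read at its brightest tested probe, 4 were lower and 0 higher. Of all tested probes 0.373% were called lower, and the other 14 markers were not called. The 4 were neuropeptide Y (Npy, log2 change -1.18, adjusted p = 1.00e-05), somatostatin (Sst, -0.85, adjusted p = 0.0028), cholecystokinin (Cck, -0.60, adjusted p = 0.0028) and cortistatin (Cort, -1.15, adjusted p = 0.024; all limma), which encode peptides that nerve cells release. The list was chosen with earlier results of these arrays known. The median log2 change of the list was -0.11, against 0.00 over all tested probes, with 13 of 18 below 0. At an unadjusted limma p under 0.05, 8 of the 18 were lower, the 4 called ones included, and 1 was higher. The other lower ones were the tachykinin gene Tac1 (-0.66, limma, adjusted p = 0.074), the parvalbumin gene Pvalb (-0.48, limma, adjusted p = 0.36), Slc32a1 and Gad1. The higher one was the nitric oxide synthase gene Nos1 (0.35 at ILMN_2770096, unadjusted limma p = 0.046, adjusted p = 0.46). The authors list Nos1 among their upregulated and Tac1 among their downregulated genes, and neither was called here. Summed over 19 interneuron markers, the linear intensity ranged from 19691 to 22884 in Braf-cko and from 27120 to 29779 in Braf-flox mice. This sum is weighted towards bright genes, the called peptide genes among them. Without these 4, a choice made after seeing the data, it ranged from 14715 to 16508 and from 16793 to 20470, so that the groups again did not overlap, by a narrow margin. The defining markers of GABAergic cells were well measured in both groups. The transporter gene Slc32a1 ranged from 11.70 to 11.93 in Braf-cko and from 11.91 to 12.11 in Braf-flox mice (log2 change -0.17, limma, adjusted p = 0.35). The synthesis gene Gad1 ranged from 11.58 to 11.82 and from 11.66 to 12.17 (-0.19, adjusted p = 0.46), and Gad2 from 10.41 to 10.83 and from 10.35 to 11.02. The part of interneuron number in the Crhbp difference was not tested. The summed intensity of 14 endothelial and mural markers also differed without overlap, 5573 to 6366 in Braf-cko and 6588 to 7282 in Braf-flox mice, although none of the 14 was called. Of these, 3 were lower at an unadjusted limma p under 0.05 (Ly6c1, Flt1 and Rgs5). Only 8 of the 14 had a change below 0, with a median of -0.02. Of 9 markers of excitatory neurons, 1 was higher, the transcription factor gene Neurod2 (0.47, limma, adjusted p = 0.025), and 7 had a change below 0, with a median of -0.10. Calb1 gave -0.53 (adjusted p = 0.068), Fibcd1 -0.61 (adjusted p = 0.073) and Slc17a7 0.34 (adjusted p = 0.32; all limma). The summed intensity of that list overlapped between the groups, 15401 to 17449 in Braf-cko and 14738 to 17762 in Braf-flox mice. No gene was called among the tested markers of astrocytes, oligodendrocytes, microglia, choroid plexus, blood and neighbouring tissue. Of 9 astrocyte markers, 4 were lower at an unadjusted p under 0.05 (Aqp4, Gjb6, Gja1 and Slc1a2), and the sum of the 9 overlapped between the groups, 25974 to 28486 in Braf-cko and 28065 to 31578 in Braf-flox mice. The choroid plexus gene Ttr varied widely within both groups, from 7.03 to 10.65 in Braf-cko and from 6.79 to 13.95 in Braf-flox mice.

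The promoter of Crhbp is shown because cyclic AMP response elements and ETS sites are the motifs through which ERK signaling reaches many promoters. RefSeq windows of GRCm38.p6, with 250 bases before and 50 after a start site, were found for 8 of the 10 genes, as 15 windows. The Crhbp window lies at chr13:95444782-95445081 on the minus strand and is printed 5′ to 3′, with a short cyclic AMP response element in capitals.
Crhbp promoter: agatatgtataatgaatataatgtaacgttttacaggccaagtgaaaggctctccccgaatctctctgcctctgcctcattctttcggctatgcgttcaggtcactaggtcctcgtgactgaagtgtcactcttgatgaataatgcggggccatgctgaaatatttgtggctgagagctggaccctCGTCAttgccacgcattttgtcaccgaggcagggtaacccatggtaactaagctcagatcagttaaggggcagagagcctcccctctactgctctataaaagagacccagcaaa
The capitals mark CGTCA, the short element TGACG read on the other strand, at -64 to -60 from the start site. Searched on both strands, TGACG was held by 20.8% of 32851 mouse promoter windows of the same length, so its presence here is common. The full palindrome TGACGTCA, which contains the short element, was held by 1.79% of all windows and the ETS core CCGGAA by 14.9%. Neither run of letters was in the Crhbp window.

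Crh itself was too dim to compare. This gene encodes the peptide that CRHBP binds, and its single probe ILMN_1233069 lay below the filter of both experiments. The log2 values were 4.82, 5.20, 5.11, 4.97 and 4.91 in Braf-cko mice, and in Braf-flox mice they ran from 4.88 to 5.62 with a median of 4.92. The groups overlapped throughout (log2 change -0.08, 95% interval -0.33 to 0.18, exact permutation test, two-sided, p = 0.66). In the Cre experiment the range was 4.95 to 5.36 in CamkII-Cre and 5.05 to 5.10 in CamkII-wt mice. The SD of a single array, 0.17, was larger than the SD between animals, 0.11, so these values carry little information on Crh.

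The receptors of CRH did not pass the test in either experiment. Crhr1, the main CRH receptor of the hippocampus, was measured by 3 probes. At the brightest, ILMN_2744710, Braf-cko mice gave 7.22, 7.07, 7.36, 7.25 and 7.75, and Braf-flox mice ran from 6.55 to 7.48 with a median of 7.16. Mutant number 5 lay above all controls and controls number 4 and 5 below all mutants, while the rest overlapped. The group means differed by 0.23 (SE 0.15, 95% interval -0.10 to 0.55; limma, adjusted p = 0.65), with 4 of 5 mutants above the control mean. The other Crhr1 probes gave 0.05 at ILMN_2668221 and 0.09 at ILMN_2714849, both with an adjusted p above that of the brightest. In CamkII-Cre mice the brightest probe changed by 0.02 (95% interval -0.13 to 0.17). The Braf-cko animal with 2 arrays differed by 0.43 between them at this probe, more than the difference between the group means.

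Crhr2, the receptor that prefers the urocortins, was near the limit of the filter. Its probe ILMN_2721406 gave 5.78, 5.91, 5.74, 5.70 and 5.89 in Braf-cko mice and 5.66 to 5.93 with a median of 5.75 in Braf-flox mice. The groups overlapped, with a log2 change of 0.05 (95% interval -0.10 to 0.20) in the Braf experiment and 0.02 (95% interval -0.11 to 0.15) in the Cre experiment. The SD of a single array, 0.18, again exceeded the SD between animals, 0.10. The other Crhr2 probe, ILMN_1237542, lay below the filter in both experiments, with changes of -0.08 and -0.05.

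The glucocorticoid receptor gene Nr3c1 was also below the filter. Its probe ILMN_2740568 gave 5.35, 5.45, 5.93, 5.28 and 5.45 in Braf-cko mice, and 5.32 to 5.58 with a median of 5.55 in Braf-flox mice. Apart from mutant number 3, above all controls, the mutant values lay within or just below the control range. Group means differed by -0.02 (95% interval -0.23 to 0.19) in the Braf and -0.03 (95% interval -0.16 to 0.11) in the Cre experiment. Although the receptor is known to be abundant in hippocampal neurons, this probe gave a weak signal, with an SD of 0.16 for a single array against 0.11 between animals.

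Hsd11b1, which encodes the enzyme that regenerates active corticosterone inside cells, was bright at both of its probes. ILMN_2774161 gave 10.07, 10.52, 10.56, 10.68 and 10.30 in Braf-cko mice and 10.19 to 10.86 with a median of 10.54 in Braf-flox mice. The groups overlapped, with a log2 change of -0.10 (SE 0.12, 95% interval -0.36 to 0.17; limma, adjusted p = 0.85). The second probe, ILMN_2652492, gave -0.11 (95% interval -0.34 to 0.12). In CamkII-Cre mice the changes were 0.05 and 0.04, and the interval at the brighter probe ran from -0.07 to 0.16.

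Among the glucocorticoid-responsive genes, Sgk1 gave the largest difference, but it did not pass the adjusted test used here at any of its 3 probes. The authors, with their own processing of these arrays, list Sgk1 among their downregulated genes. Which of the 3 probes that was is not given. SGK1 is a serum- and glucocorticoid-regulated kinase of ion channels and transporters, and in the brain it is strongly expressed in oligodendrocytes as well as in neurons. At the brightest probe, ILMN_1213954, Braf-cko mice gave 11.25, 11.14, 10.58, 11.70 and 10.88, and Braf-flox mice 11.26 to 11.88 with a median of 11.44. Of the 5 mutants, 4 lay below the lowest control and number 4 lay within the control range. This gave a log2 change of -0.40 (SE 0.17; limma, adjusted p = 0.41).

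At ILMN_1217874 the mutants gave 9.50, 9.38, 8.91, 10.12 and 9.22 and the controls 9.66 to 10.46 with a median of 9.86, again with mutant number 4 alone inside the control range. The change was -0.56 (SE 0.19; limma, adjusted p = 0.28). At the dimmer ILMN_2466142 the mutants gave 6.44, 6.75, 6.32, 6.17 and 6.25 and the controls 6.60 to 6.98 with a median of 6.81. Here the probes disagreed on the animals: mutant number 4 was the lowest of the 5 and mutant number 2 the highest, whereas number 4 was the highest at both other probes. On average the change was -0.42 (SE 0.10; limma, adjusted p = 0.11), with 5 of 5 mutants below the control mean, and an unadjusted exact permutation test, two-sided, gave p = 0.013. Without Braf-cko replicate 2, the highest mutant at this probe, it passed the limma test (adjusted p = 0.023, change -0.51). That was the 1 call in 21 alternatives at ILMN_2466142, and both other Sgk1 probes were called in 0 of 21. Their unadjusted exact permutation tests, two-sided, gave p = 0.082 at ILMN_1213954 and p = 0.048 at ILMN_1217874.

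In CamkII-Cre mice the 3 Sgk1 probes changed by -0.03, -0.08 and 0.02. Tested against that, the difference between both changes was -0.38, -0.47 and -0.45 (limma, adjusted p = 0.81, 0.89 and 0.44). These 3 probes and the brightest Tsc22d3 probe, beside Crhbp, made up the 5 of 13 member probes with an unadjusted p under 0.05 and a lower level in Braf-cko mice. The corresponding share of all tested probes was 5.41%, and the Sgk1 probes measure 1 gene in the same animals and are not separate evidence. The summed intensity of 9 oligodendrocyte markers overlapped between the groups, 36985 to 60112 in Braf-cko and 37657 to 51725 in Braf-flox mice. Its part in the spread of Sgk1 was not tested.

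**Figure D2:**
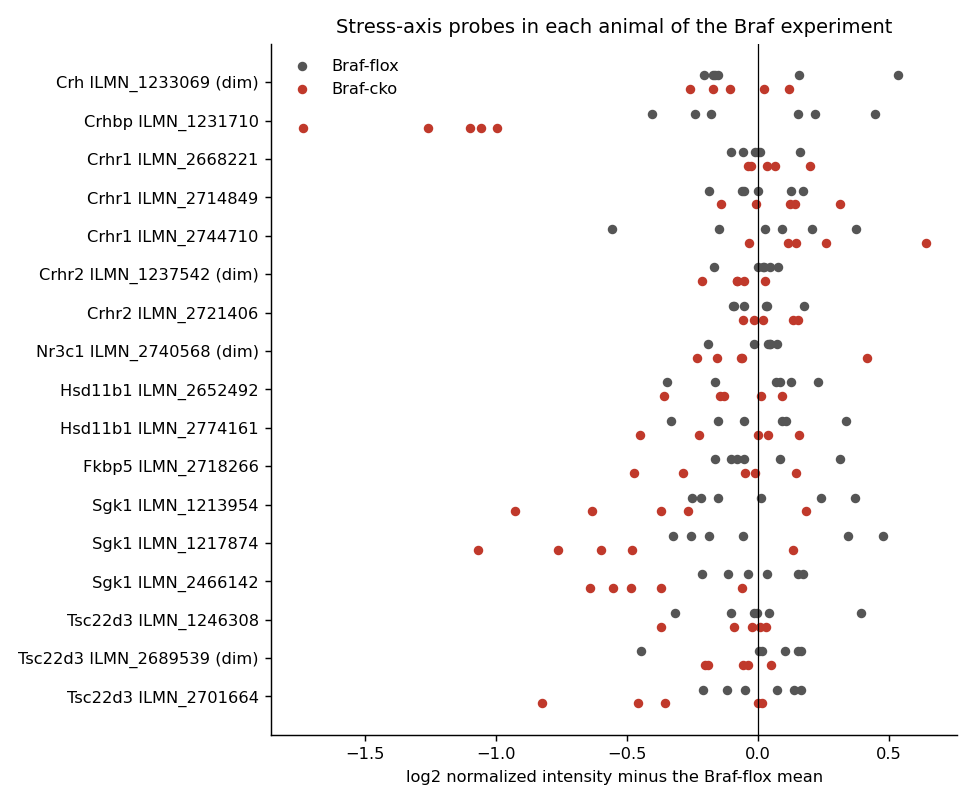
All 17 stress-axis probes in the Braf experiment, as log2 normalized intensity minus the mean of the Braf-flox mice (horizontal axis), one point for each animal; probes marked dim lay below the filter. Crhbp is the single probe at which the 5 Braf-cko points are apart from the 6 Braf-flox points, and at each of the 3 Sgk1 probes 1 mutant lies among the controls.

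The Sgk1 window at chr10:21993640-21993939 on the plus strand is shown because, of the 15 member windows, it alone held a perfect palindrome of the glucocorticoid response element. The motif searched was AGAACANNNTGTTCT, which reads the same on both strands, and the capitals mark it.
Sgk1 promoter: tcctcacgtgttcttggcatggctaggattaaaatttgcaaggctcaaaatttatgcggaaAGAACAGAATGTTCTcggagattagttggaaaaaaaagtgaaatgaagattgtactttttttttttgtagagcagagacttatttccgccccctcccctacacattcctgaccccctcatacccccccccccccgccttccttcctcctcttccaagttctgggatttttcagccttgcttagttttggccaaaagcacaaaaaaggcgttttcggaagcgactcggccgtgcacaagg
The palindrome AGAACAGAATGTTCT lies at -189 to -175 from this start site, which is 1 of 6 listed for Sgk1. In all, 3 of 32851 mouse promoter windows, 0.00913%, held the motif in this perfect form. The short element TGACG was in 1 other Sgk1 window and in 1 of 3 Tsc22d3 windows. The arrays do not tell which start sites were in use.

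Tsc22d3 was measured by 3 probes, and the brightest, ILMN_2701664, varied widely between animals. Braf-cko mice gave 7.72, 7.36, 6.89, 7.73 and 7.26, and Braf-flox mice 7.50 to 7.88 with a median of 7.73. Mutants 1 and 4 lay within the control range and the other 3 below it. The change was -0.32 (SE 0.13; limma, adjusted p = 0.40), and in CamkII-Cre mice -0.21 (SE 0.15; limma, adjusted p = 1.00). Without Braf-cko replicate 3, the lowest mutant, the Braf change was -0.20 (limma, unadjusted p = 0.096, adjusted p = 0.66). The difference between both changes was -0.12 (SE 0.21; limma, adjusted p = 0.99). The dimmer probes ILMN_1246308 and ILMN_2689539 gave -0.09 and -0.09 in the Braf and -0.09 and -0.10 in the Cre experiment.

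Fkbp5, whose product FKBP51 is a co-chaperone that holds the glucocorticoid receptor in a state of low affinity, overlapped between the groups in both experiments. Its probe ILMN_2718266 gave 8.34, 8.50, 8.06, 8.30 and 7.88 in Braf-cko mice and 8.18 to 8.66 with a median of 8.28 in Braf-flox mice. Its change was -0.13 (SE 0.11, 95% interval -0.37 to 0.11; limma, adjusted p = 0.74). In the Cre experiment CamkII-Cre mice ran from 8.83 to 9.36 and CamkII-wt mice from 8.97 to 9.58, with a change of -0.09 (95% interval -0.35 to 0.16). Both technical sets of that experiment differed by 0.36 at this probe on average, which the average over 2 arrays removes from the comparison.

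**Figure D3:**
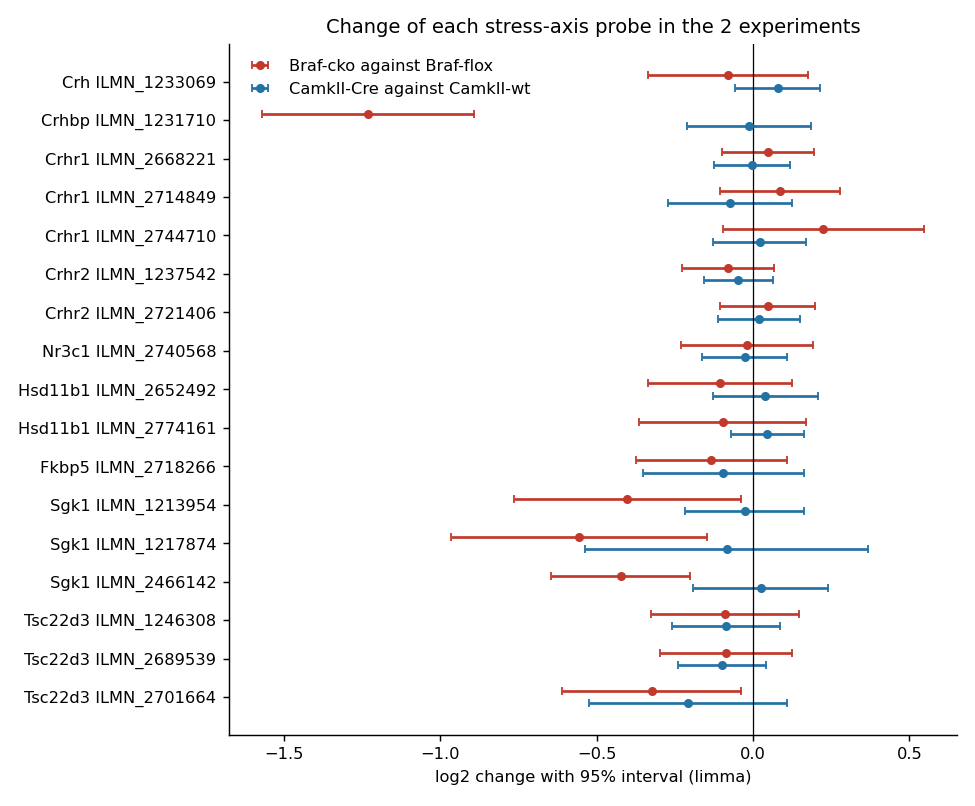
Log2 change of each of the 17 stress-axis probes (horizontal axis) with its 95% interval from limma, for Braf-cko against Braf-flox and for CamkII-Cre against CamkII-wt mice. Crhbp, the 3 Sgk1 probes and the Tsc22d3 probe ILMN_2701664 have intervals below 0 in the Braf experiment, and all intervals of the Cre experiment include 0.

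For the bright probes other than Hsd11b1 ILMN_2774161, the spread between animals of a group exceeded that between arrays. It was 0.44 against 0.09 for Sgk1 at ILMN_1217874, 0.30 against 0.08 for Tsc22d3 at ILMN_2701664, and 0.24 against 0.14 for Fkbp5. These genes therefore differed between animals of the same genotype by more than the arrays' error. For the probes of Crh, Nr3c1 and Crhr2, for 2 of 3 Crhr1 probes, for Hsd11b1 at ILMN_2774161 (0.09 against 0.08) and for Tsc22d3 at ILMN_2689539, the spread of a single array was the larger.

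**Figure D4:**
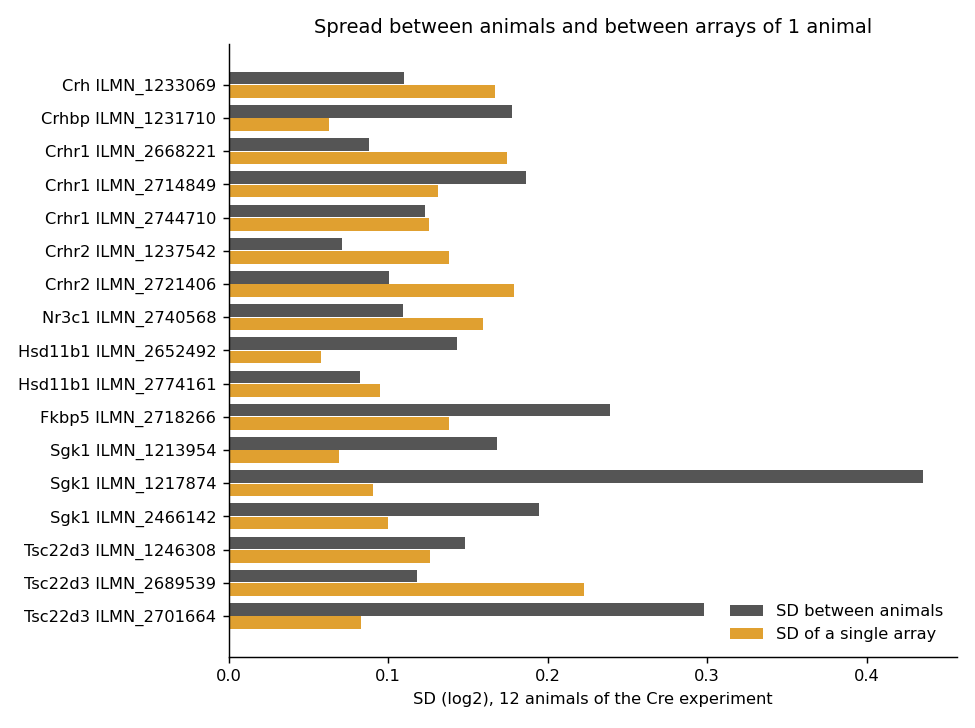
SD of log2 values for each probe, between animals of a group (dark bars, arrays of 1 animal averaged) and for a single array (light bars, from the difference of both arrays of an animal), over the 12 animals of the Cre experiment. For Crhbp the bars stand at 0.18 and 0.06, and for the dim Crh probe at 0.11 and 0.17.

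Sgk1 and Tsc22d3 varied together within groups, though not beyond adjustment. After the group means were removed, their brightest probes correlated over the 23 animals with Pearson's r = 0.53 (permutation p = 0.016, 0.065 adjusted over 4 pairs) and Spearman's rho = 0.53 (permutation p = 0.016, 0.065 adjusted). Without the 2 animals farthest from the median of Sgk1, r was 0.32, so that the relation rested in part on those animals. Within the Braf experiment r was 0.68 (rho = 0.60, 11 animals, permutation p = 0.055, 0.22 adjusted). Within the Cre experiment it was 0.41 (rho = 0.51, 12 animals, permutation p = 0.18, 0.57 adjusted). Without the 2 animals farthest from the median of Sgk1 in each experiment, r was 0.25 and 0.16. Fkbp5 correlated with Sgk1 at r = 0.14 (rho = 0.14, permutation p = 0.59) and with Tsc22d3 at r = 0.23 (rho = 0.20, permutation p = 0.35), and Crh with Crhbp at r = -0.26 (rho = -0.11, permutation p = 0.37). The Fkbp5 and Sgk1 values correlated at 0.48 in the Braf and at -0.37 in the Cre experiment. Those of Fkbp5 and Tsc22d3 correlated at 0.57 in the Braf and at -0.0048 in the Cre experiment. The CRH receptors gave r = -0.27 and rho = -0.33, as values only.

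**Figure D5:**
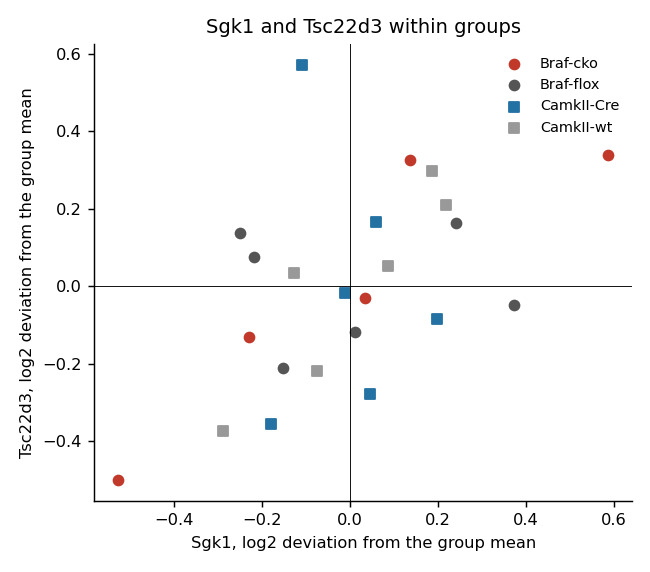
Deviation of each of the 23 animals from its group mean, log2, for Sgk1 (horizontal axis, ILMN_1213954) and Tsc22d3 (vertical axis, ILMN_2701664). Pearson's r is 0.53 over all animals and 0.32 without the 2 animals farthest from the median of Sgk1.

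The named genes whose deviations over the 23 animals were most like those of a member are given as a description. They were found among 11538 genes, so high values arise by selection. For Fkbp5 they were Lsm14b (r = 0.86), Plin4 (0.86), itself on the list of glucocorticoid-induced genes, and Dhx33 (0.81). For Tsc22d3 they were Txnip (0.81), a thioredoxin-interacting protein gene, Abcb10 (0.72) and P2ry14 (0.71), and for Sgk1 Plekhf1 (0.82), Hyal2 (0.78) and Wscd1 (0.73). Crhbp was most like Cenpm (0.75), Senp6 (0.73) and Hmgcll1 (0.72), and Crhr1 like the neurotensin receptor gene Ntsr1 (0.87), Lgi2 (0.84) and Klf5 (0.83). For Hsd11b1 they were Marchf1 (0.82), Acot6 (0.78) and Taf3 (0.78), and for Crhr2 the kinase gene Src (0.75), Zdhhc23 (0.74) and Atp5e (0.74). Each gene was read at its brightest probe, and none of these probes passed the limma test in the Braf experiment, where that of Atp5e was below the filter. The authors list Abcb10 among their upregulated genes, whereas the probe used here, ILMN_1218457, gave -0.10 (limma, adjusted p = 0.83).

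Other genes of the stress axis, from lists chosen by function, did not pass the limma test either. Of 26 further glucocorticoid-induced genes 24 were tested, and 0 were lower and 0 higher in Braf-cko mice, with 1 at an unadjusted p under 0.05. This was the transcription factor gene Klf9 (log2 change -0.15, adjusted p = 0.44). The next smallest were the phosphatase gene Dusp1 (-0.40, adjusted p = 0.51), the metallothionein gene Mt2 (-0.25, adjusted p = 0.53) and Zbtb16 (-0.14, adjusted p = 0.67; all limma). The median change of the list was -0.06, with 18 of 24 below 0, and in CamkII-Cre mice it was -0.07, with 19 of 24 below 0, where the median over all tested probes was 0.00 in both.

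Of 10 tested genes that carry the signal of CRH receptors 0 were called, and the G protein gene Gnaq had the smallest adjusted p (log2 change -0.25, limma, adjusted p = 0.19). It was followed by the arrestin gene Arrb2 (0.19, adjusted p = 0.44) and by Prkaca (-0.16, adjusted p = 0.49), which encodes the catalytic subunit of protein kinase A. Of 9 receptor chaperones and coregulators 0 were called, with Crebbp first (-0.19, limma, adjusted p = 0.43). Of 4 further peptides and receptors of the axis 0 were called, with the PACAP receptor gene Adcyap1r1 first (0.23, limma, adjusted p = 0.27), and of 3 genes of steroid metabolism 0, with Cyp11a1 first (0.35, limma, adjusted p = 0.39). At an unadjusted p under 0.05 were Gnaq and Crebbp, lower, and Arrb2, Adcyap1r1 and Cyp11a1, higher. In CamkII-Cre mice 0 genes of these 5 lists were called, and Zbtb16 was the 1 gene at an unadjusted p under 0.05 (-0.17, limma, adjusted p = 1.00).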

How the data were processed

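Hippocampal RNA of 23 mice was hybridized to 36 MouseWG-6 v1.1 BeadChips. The authors, using the R packages beadarray, limma and vsn, deposited for each probe and array a normalized intensity on a linear scale; the settings are not given in the sources used here. Log2 values were averaged over the arrays of an animal. Of 46632 probes the brighter 50%, 23316, were tested in each comparison with limma 3.58.1 (R 4.3.3, lmFit and eBayes, two-sided) and Benjamini-Hochberg adjustment at 0.05, and the difference between both changes in 1 fit of all animals. The script was tested on simulated data. Single probes were compared by an exact permutation test, and correlations by 100000 permutations within groups (Python 3.11.15, scipy 1.17.1).

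The platform annotation named a single gene for 29976 probes, of which 29921 matched the reference table by gene ID. The brightest tested probe stood for a gene of a list. All member probes are named, and of each list the genes past the threshold and up to 4 with the smallest adjusted p. Members and lists were chosen with earlier results of these data known. A second table of 72 columns before normalization was not used, as its column names match no sample label. The number of arrays limits the precision. Alternatives were the probe filter, quantile normalization, an offset of 16, the arrays used, blocks of animals and the variance model. Student's t-test in place of limma and leaving out each animal were others. Array 2 alone, the animals numbered 1 to 3 or from 4, and the interneuron sum without called genes were added after seeing the data.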

Additional observations from a re-analysis of the deposited data

Results flagged for a closer look

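The change of Crhbp differed between the experiments: Braf-cko minus Braf-flox less CamkII-Cre minus CamkII-wt was -1.22 on the log2 scale (SE 0.19, limma, adjusted p = 0.0029), with 5 of 5 mutants below the Braf-flox mean.

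Of 68 groups of 5 or 6 animals, 8 held an animal far from the others by Dixon's criterion, which chance gives in about 1 of 20 groups. Nr3c1 at ILMN_2740568 held 3 of them: Braf-cko replicate 3 at 5.93 against 5.28 to 5.45 in the other mutants, Braf-flox replicate 3 at 5.32 against 5.50 to 5.58, and CamkII-wt replicate 6 at 5.41 against 5.62 to 5.71. Other dim probes held 3, Crh in CamkII-wt replicate 2 at 5.10 against 5.05 to 5.07, Crhr2 at ILMN_1237542 in Braf-flox replicate 3 at 5.56 against 5.73 to 5.80, and Tsc22d3 at ILMN_2689539 in Braf-flox replicate 4 at 5.04 against 5.49 to 5.65. Among tested probes, Sgk1 at ILMN_2466142 was at 6.72 in CamkII-Cre replicate 1 against 6.17 to 6.38 in the others, and Tsc22d3 at ILMN_1246308 at 6.79 in CamkII-Cre replicate 4 against 6.31 to 6.46.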

How the results depend on the processing

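Crhbp kept its direction in Braf-cko mice under all 21 alternatives (log2 change -1.31 to -1.10) and was called in 18, with an adjusted p of 0.0011 to 0.23. The count of called member probes was 0 by Student's t-test (Crhbp adjusted p = 0.064). It was also 0 by limma within animals numbered 1 to 3 (-1.28, adjusted p = 0.096) and within animals numbered 4 and above (-1.23, adjusted p = 0.23), where fewer animals were compared. Leaving out each animal gave 1 to 2 called probes, the second being Sgk1 at ILMN_2466142 without Braf-cko replicate 2. Crhbp was called in every one of the 11 such fits, and the difference from the Cre experiment in all 30 of its alternatives.

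It cannot be told from so few animals whether their numbers pair them. Deviations of same-numbered animals correlated at -0.14 to 0.13 in the Braf and -0.24 to 0.59 in the Cre experiment. CamkII-Cre animals 1 (0.38) and 6 (0.59) and Braf-cko animal 2 (0.13) were most like the control of the same number. With the replicate block the SE of the Crhbp change in Braf-cko mice was 0.11, against 0.16 without it. With the replicate block 1 member probe was called, Crhbp, and 58 probes in all (46 lower, 12 higher) against 124 without it; in the Cre experiment the replicate block called 0 member probes. Over all probes Student's t-test called 15 lower and 4 higher.

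Outside the fits that leave out an animal, 11 member values changed sign, to values of -0.0910 to 0.0573. Not all of them were near 0 in the other fits. In the Braf experiment Crhr1 was 0.23 in the main fit and 0.56 from animal 4 on, and Fkbp5 -0.13 and -0.31. In Braf-cko mice Sgk1 and Tsc22d3 at their brightest probes stayed negative in all 21 alternatives, without a call (-0.55 to -0.27 and -0.41 to -0.20). In CamkII-Cre mice, array 1 alone gave 0.0191 for Crhbp, -0.0394 for Crhr2 and -0.0029 for Hsd11b1, and array 2 alone 0.0320 for Sgk1 and -0.0557 for Crhr1. Within animals 1 to 3 the changes were 0.0030 for Fkbp5 and -0.0524 for Crhr1 in the Braf and 0.0573 for Crhbp and -0.0910 for Crhr1 in the Cre experiment; from animal 4 on they were -0.00034 for Crhr2 in the Braf and -0.0037 for Hsd11b1 in the Cre experiment. Leaving out 1 animal, the Cre changes ranged from -0.0741 to 0.0584 for Crhbp, -0.0842 to 0.0175 for Sgk1, -0.0096 to 0.0722 for Crhr1 and -0.0125 to 0.0499 for Crhr2. The difference between both changes then ranged from -0.201 to 0.0092 for Tsc22d3, -0.111 to 0.0455 for Fkbp5 and -0.0031 to 0.0618 for Crhr2. The cause was not tested. All arrays with the animal as a random block were not run for the Braf experiment, where 1 animal has repeated arrays. Weak signal of Crh and Nr3c1 limits what these arrays show of them.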
